A study of Danio rerio with 10 samples.

Results

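Heat shock proteins and other molecular chaperones were compared between 2 sorted fractions of the adult zebrafish pituitary. Members were the gene names of the deposited table that begin like an Hsp70, Hsp90, small heat shock, J protein, BAG, CCT, prefoldin, heat shock factor, stip1 or ahsa1 name. Names beginning with ptges3 or serpinh1 were left out, as the rule asks. This gave 96 of the 14781 genes in the table. Of these, 5 had no count in any library, 8 had too few counts for the test, and 83 were tested.

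Chaperones bind unfolded or partly folded proteins. Hsp70 works in cycles of ATP binding and release, J proteins bring it clients and start its ATP hydrolysis, and nucleotide exchange factors such as the BAG proteins reset it. Hsp90 takes later folding steps with helpers such as Stip1, CCT and prefoldin fold actin and tubulin, and small heat shock proteins hold clients without using ATP. Some members are made at all times, and others are switched on by heat shock factor Hsf1 when proteins unfold.

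All fish were adult males of the TL strain, 12 months old, and all had been injected with 10 µL of β-Ala-Lys-Nε-AMCA at 4.6 mM, a dipeptide carrying a blue dye. After 3 hours, 5 pools of 7 pituitaries were dissociated with Liberase and trypsin, and sorting separated cells that fell in the dye gate (AMCA-positive, labelled pituicytes, the astroglia of the neurohypophysis) from the rest (AMCA-negative, labelled non-pituicytes). There were 5 libraries per group, of which plate 1 carried 2 and plate 2 carried 3. Both groups went through the same injection, dissociation and sort, and tissue that was not dissociated was not analysed here. Nothing in the labels says which libraries share a pool.

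Totals ran from 4250948 to 6068781 counts per library, and no 2 libraries held identical values. Counts were found for 11308 to 11817 genes in AMCA-positive and 7079 to 9056 genes in AMCA-negative libraries. Astroglial and infundibular markers were higher in AMCA-positive libraries for 16 of 19 genes tested. By edgeR, endothelial markers were called higher there for 5 of 11 genes, epithelial ones for 8 of 12 and leukocyte ones for 15 of 20. For mural cells and fibroblasts it was 9 of 12, for endocrine cells 4 of 17 and for neurons and oligodendrocytes 1 of 14. Over all genes tested, edgeR called 16.2% higher and 6.56% lower. The leukocyte marker cxcr4b was called lower (log2 fold change -1.31, edgeR adjusted p = 0.00829). Red cell genes took 0.0313% to 0.0934% of AMCA-positive and 12.6% to 23.9% of AMCA-negative counts. Both fractions are mixtures of cells, in which fewer cells of a type and less RNA per cell cannot be told apart.

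The first question was how many chaperone genes differed between the fractions. Of 83 members tested, 12 were higher and 4 were lower in the AMCA-positive group. The test was edgeR's quasi-likelihood test with a term for plate, and a call needed a Benjamini-Hochberg adjusted p, taken over all genes, under 0.05 (n = 5 per group). This is 14.5% higher against 16.2% of all 10468 genes tested, and 4.82% lower against 6.56%. The share of members called was thus close to the background in both directions. The groups were apart, with AMCA-positive libraries all higher, for 18.1% of members against 18.7% of all genes, and with them all lower for 3.61% against 5.72%. The median log2 fold change was 0.89 over the members and 0.69 over all genes tested. This order turned by limma-voom (1.31 against 1.64), with the block of neighbouring wells (1.36 against 1.78) and on plate 1 (0.26 against 0.29), and the median of all genes ran from 0.13 to 1.78 over the alternatives.

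Counts of called members moved with the test and with single libraries. DESeq2 called 27 members higher (32.5%, background 25.9%) and 9 lower (10.8%, background 9.19%), and limma-voom with quality weights called 23 higher (27.7%, background 24.1%) and 4 lower (4.82%, background 7.31%). With DESeq2 size factors in edgeR 16 were higher (19.3%, background 17.6%) and 4 lower (4.82%, background 5.46%). A filter of 10 CPM in 5 libraries left 7 higher (10.1%, background 10.4%) and 5 lower (7.25%, background 11.4%). A block of neighbouring wells gave 11 higher (12.6%, background 11.9%) and 3 lower (3.45%, background 3.93%). Without AMCA-positive replicate 1 (background 13.1% higher, 4.59% lower) or replicate 4 (12.6% and 4.82%), edgeR called 7 members higher. Without AMCA-negative replicate 2 (15.7% and 6.32%) it called 7 lower, and without AMCA-negative replicate 3 (14.4% and 6.89%) it called 8 lower. On plate 1 alone, with 2 libraries per group, edgeR called 0 members in either direction, against 0.309% of all genes higher and 0.363% lower. At an unadjusted p under 0.05 it gave 14 members higher (16.9%, background 21.2%) and 6 lower (7.23%, background 6.33%). On plate 2 alone it called 7 higher (8.64%, background 14.8%) and 3 lower (3.70%, background 5.15%). By the adjusted p of the authors' deposited table, 20 members were higher and 8 lower, among them all 12 and all 4 called here. Over all 11270 genes with an adjusted p in the authors' deposited table, 2509 were higher (background 22.3%) and 937 lower (8.31%).

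**Figure D1:**
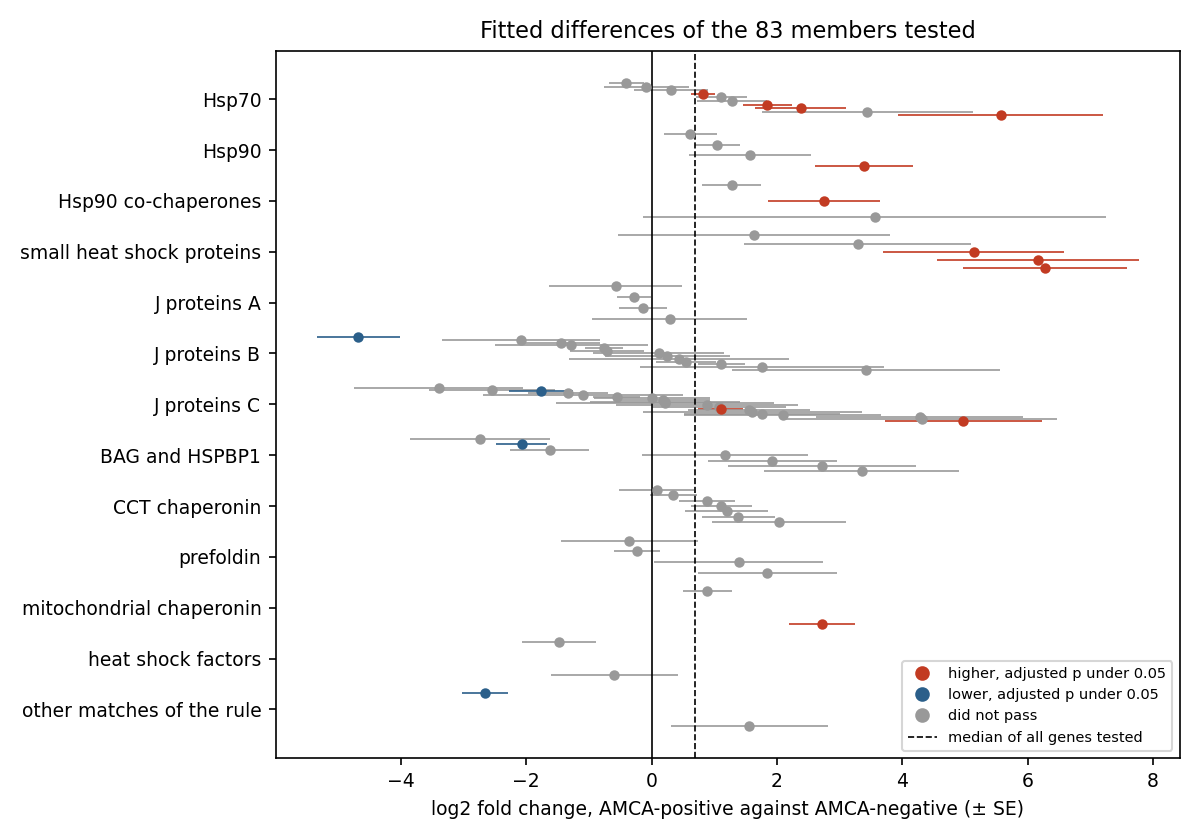
Fitted log2 fold change of each member tested, AMCA-positive against AMCA-negative, with bars of ± 1 SE, by chaperone family; the dashed line is the median of all genes tested, 0.69. Red points (12) passed the test as higher, blue points (4) as lower, and the small heat shock proteins hold the 2 largest increases.

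The called share was near the background. The members as a whole took a larger part of the unscaled counts in every AMCA-positive library than in any AMCA-negative one. Their share of counts was 2.24%, 1.73%, 2.65%, 2.24% and 1.93% in AMCA-positive replicates 1 to 5. In AMCA-negative replicates 1 to 5 it was 0.700%, 0.954%, 0.508%, 1.26% and 0.856%. The groups did not overlap, with means of 2.16 ± 0.350% and 0.856 ± 0.283% (SD, n = 5), and no test was made of this sum. When the 10 most counted genes of each library were set aside, the means were 2.41% and 1.27%. Red cell genes, which weigh on the AMCA-negative totals, took more of the counts in the group where this share was lower. Without them the means were 2.16% and 1.006%.

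Most of those counts came from 6 genes: hspa8, hsp70.1, hsp70l, hsp90ab1, dnajb1b and hsp90aa1.2. Together they made up 71.4% to 76.2% of the members' counts in AMCA-positive libraries and 42.8% to 70.8% in the others. Gene length was not taken into account in these shares. The Hsp70 family alone took 1.14 ± 0.173% of counts in the AMCA-positive group and 0.365 ± 0.144% in the other (SD, n = 5). For the Hsp90 family the shares were 0.427 ± 0.101% and 0.154 ± 0.0831%. The shares of both families are of unscaled counts as well.

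**Figure D2:**
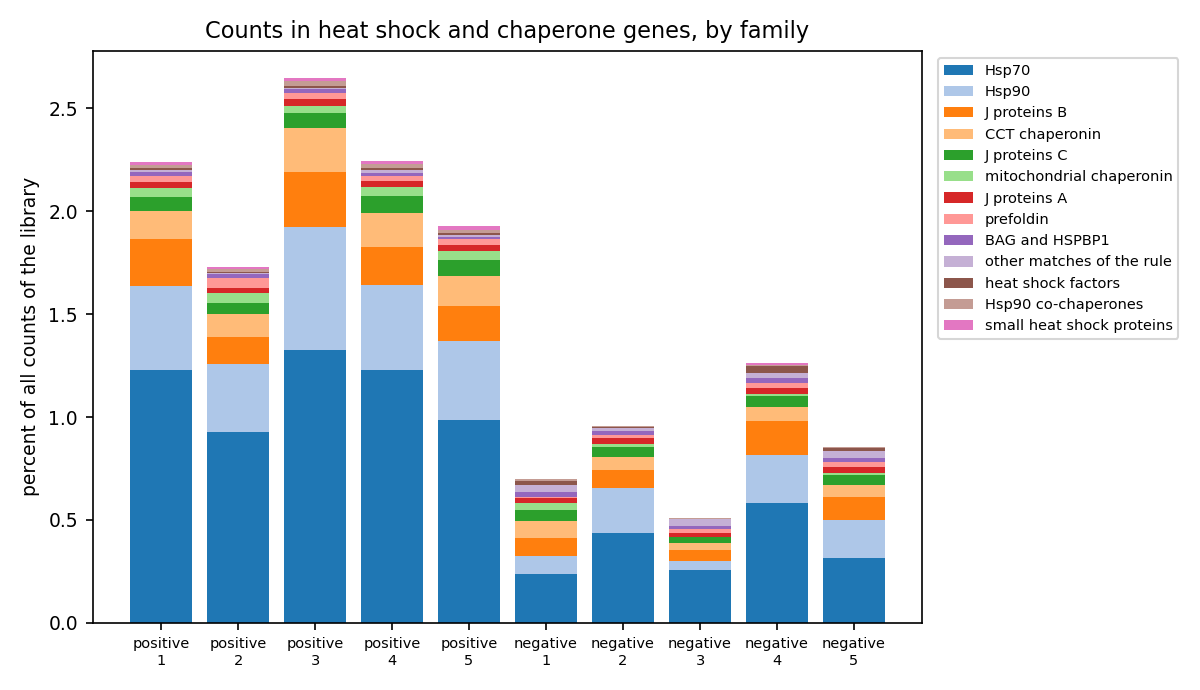
Percent of all counts of each library that fell in the members, stacked by family, for 5 AMCA-positive and 5 AMCA-negative libraries. AMCA-positive libraries run from 1.73% to 2.65% and AMCA-negative ones from 0.508% to 1.26%, and Hsp70 genes are the largest block in all 10.

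Among the Hsp70 genes edgeR called 4 of 10 tested higher, against 16.2% of all genes. Of these, hspa12b held 300 AMCA-positive and 3 AMCA-negative counts and reached the test through its AMCA-positive counts. The number called is thus partly set by the filter. Fitted log2 fold changes of the family ran from -0.41 to 5.57 with a median of 1.19. The stress-inducible gene hsp70l was at 3665, 2155, 2969, 3154 and 2001 CPM (the count per 1e+06 counts of the scaled library) in AMCA-positive replicates 1 to 5. In AMCA-negative replicates it was at 457, 1031, 424, 1497 and 470.0 CPM. All AMCA-positive libraries were above all AMCA-negative ones, of which replicates 2 and 4 were the highest. The log2 fold change of hsp70l was 1.85 ± 0.39 (SE; adjusted p = 0.00685 by edgeR).

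The second inducible gene, hsp70.1, had a similar order of libraries and did not pass. Its levels were 3195, 2314, 3078, 3202 and 2330.4 CPM in AMCA-positive and 591, 1745, 604, 2722 and 898 CPM in AMCA-negative replicates 1 to 5. AMCA-negative replicate 4 lay inside the AMCA-positive range, and the groups overlapped. The log2 fold change of hsp70.1 was 1.11 ± 0.41 (SE; adjusted p = 0.0768 by edgeR), and without AMCA-negative replicate 4 it was 1.49 (edgeR adjusted p = 0.0109). The inducible Hsp70 genes are similar copies between which reads may have been split, so their separate levels are uncertain.

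The constitutive Hsp70 gene hspa8, which serves routine folding and clathrin uncoating, had the most counts of all members. It was at 2621, 3054, 4522, 2831 and 2800.5 CPM in AMCA-positive replicates. The AMCA-negative replicates held 1246, 1787, 2422, 1841 and 1725 CPM, all below the lowest AMCA-positive library. Its log2 fold change, 0.82 ± 0.20 (SE; adjusted p = 0.0119 by edgeR), was small and close to the median of all genes tested, 0.69.

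**Figure D3:**
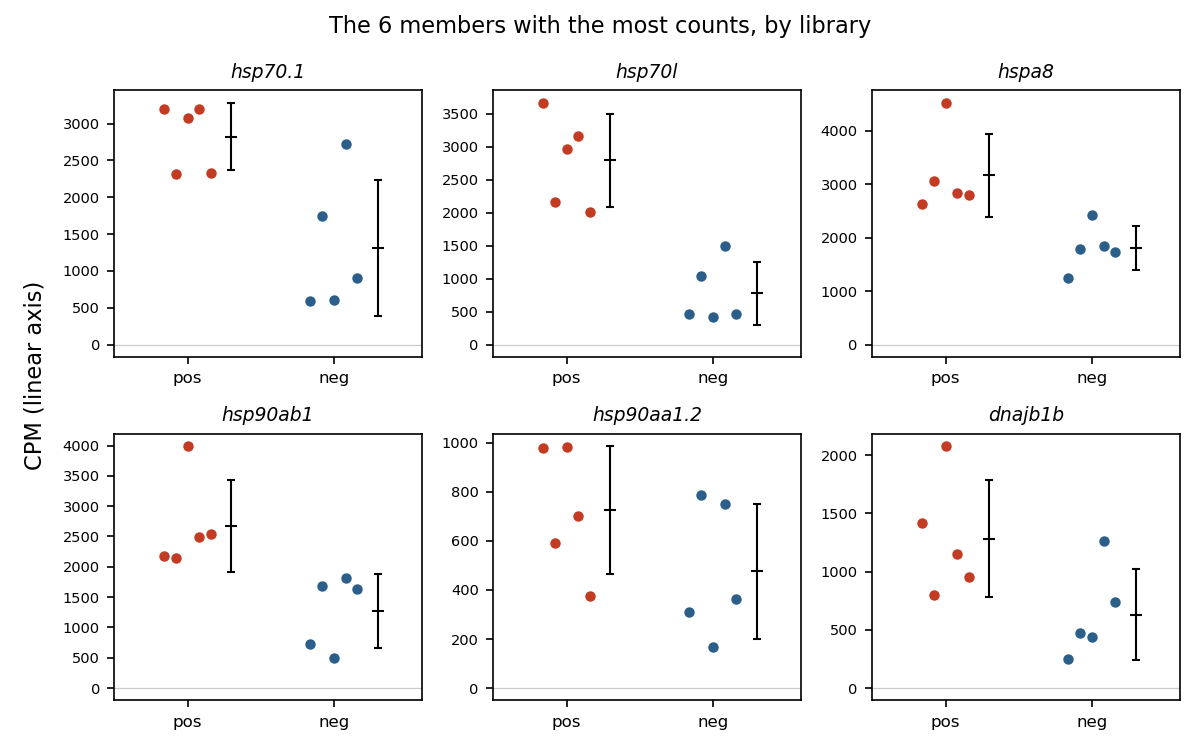
Level in CPM (linear axis) of the 6 members with the most counts in 5 AMCA-positive (pos, red) and 5 AMCA-negative (neg, blue) libraries, with mean ± SD in black. hsp70l, hspa8 and hsp90ab1 do not overlap between groups, while AMCA-negative libraries reach the AMCA-positive range for hsp70.1 (1 library), dnajb1b (1) and hsp90aa1.2 (2).

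Of the members that work in the endoplasmic reticulum (ER), edgeR called hspa5 and hsp90b1 higher. The ER Hsp70 gene hspa5, which encodes BiP, was at 213, 228, 456, 330.0 and 259.8 CPM in AMCA-positive and 63.6, 57.3, 2.94, 26.9 and 129 CPM in AMCA-negative replicates. No AMCA-negative library reached the AMCA-positive range, and AMCA-negative replicate 3 was the lowest. The log2 fold change of hspa5 was 2.38 ± 0.73 (SE; adjusted p = 0.0373 by edgeR). Its call was lost in 8 of the fits that left out 1 library (edgeR adjusted p from 0.0574 to 0.0973). The ER Hsp90 gene hsp90b1, known as Grp94, was at 202, 154, 226, 151 and 143 CPM against 0.282, 20.2, 20.3, 17.9 and 30.1 CPM. The groups were far apart, and AMCA-negative replicate 1 was nearly empty. Its log2 fold change was 3.39 ± 0.78 (SE; adjusted p = 0.00973 by edgeR).

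In all, edgeR called 2 of 14 ER-resident members tested higher (background 16.2%). All AMCA-positive libraries were above for 5 of the 14, against 18.7% of all genes: these 2, the Hsp70 gene hspa13 and the J protein genes dnajc1 and dnajc3a, which did not pass (edgeR adjusted p = 0.186, 0.317 and 0.0905). The other 9 overlapped, among them the J protein gene dnajc10 with a negative log2 fold change of -2.54 (edgeR adjusted p = 0.0991). The gene dnajc3a passed without AMCA-negative replicate 4 (edgeR adjusted p = 0.0218). Of ER folding and unfolded protein response genes outside the rule, edgeR called 7 of 26 tested higher (background 16.2%), DESeq2 11 (25.9%) and limma-voom 13 (24.1%). The disulfide isomerase gene pdia3 was at 441 ± 125 against 124 ± 41.3 CPM (SD, n = 5), a difference of 1.81 ± 0.31 in log2 units (SE; adjusted p = 0.00245 by edgeR). The ER Hsp70-like gene hyou1, with 4.098 ± 0.90, creld2 with 7.76 ± 1.38 and the ER oxidase gene ero1a with 7.50 ± 1.43 (log2 fold change, SE) were the other members with the smallest p. All 4 had every AMCA-positive library above every AMCA-negative one. Mean AMCA-negative levels of creld2 and ero1a were near 0 (0.0439 and 0.125 CPM), so the size of their changes is loosely bounded. Both reached the test through their AMCA-positive counts, so the number called in this list is partly set by the filter. The median log2 fold change of this list was 1.51, against 0.69 for all genes tested.

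The 3 cytosolic Hsp90 genes were not called by edgeR, while DESeq2 called hsp90ab1 (adjusted p = 0.0142) and hsp90aa1.1 (0.0415) and limma-voom called hsp90ab1 (0.0353). The constitutive gene hsp90ab1 was at 2174, 2145, 3990.2, 2497 and 2539 CPM in AMCA-positive and 731, 1680.2, 491, 1823 and 1636 CPM in AMCA-negative replicates 1 to 5. These groups did not overlap, yet the log2 fold change of 1.05 ± 0.35 (SE) had an edgeR adjusted p of 0.0541. Leaving out AMCA-negative replicate 2 gave an edgeR adjusted p of 0.0322. The inducible gene hsp90aa1.2 was at 978, 594, 985, 700.3 and 376 CPM against 311, 787, 169, 749 and 365 CPM. Here the groups overlapped widely (log2 fold change 0.62 ± 0.43 SE; edgeR adjusted p = 0.367), and they overlapped in 1 library of each group for the less counted hsp90aa1.1 (1.57 ± 0.97 SE; edgeR adjusted p = 0.305).

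Of the Hsp90 helpers, stip1, which hands clients from Hsp70 to Hsp90, was higher. It was at 45.9, 40.7, 89.99, 77.2 and 88.3 CPM in AMCA-positive and 0.282, 4.61, 6.13, 14.1 and 47.9 CPM in AMCA-negative replicates. AMCA-negative replicate 5 reached the lower AMCA-positive libraries, and the call was at the edge of the threshold (log2 fold change 2.75 ± 0.90 SE; edgeR adjusted p = 0.0480). The activator gene ahsa1b did not overlap between groups but missed the threshold (1.28 ± 0.47 SE in log2 units; adjusted p = 0.0740 by edgeR), and passed without AMCA-negative replicate 1 (edgeR adjusted p = 0.0407). Its paralog ahsa1a had 64.5 CPM in AMCA-negative replicate 1 and no count in the other AMCA-negative libraries, so its mean was higher in AMCA-negative cells while its fitted log2 fold change was 3.56 ± 3.69 (SE; adjusted p = 0.573 by edgeR). Without that library ahsa1a passed (edgeR adjusted p = 0.0216), but only against a group left with no count. Among Hsp70 and Hsp90 helpers outside the rule, edgeR called 0 of 22 tested (background 16.2% higher and 6.56% lower). At an unadjusted p under 0.05 edgeR gave 2 higher and 4 lower. DESeq2 called 1 higher and 3 lower (background 25.9% and 9.19%) and limma-voom 4 higher and 2 lower (background 24.1% and 7.31%).

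Small heat shock proteins had the largest differences, at low levels. Of 9 members 5 were tested, and edgeR called 3 of these higher (background 16.2%). These 3 held few AMCA-negative counts and reached the test through their AMCA-positive counts, so this number is partly set by the filter. The gene hspb8, whose product works with Bag3 in the removal of damaged proteins, was at 8.93, 25.2, 13.3, 12.8 and 16.1 CPM in AMCA-positive replicates. AMCA-negative replicates held 0, 0, 0.490, 0.188 and 0.399 CPM, far below (log2 fold change 6.28 ± 1.30 SE; edgeR adjusted p = 0.00622). For hspb15 the values were 53.0, 25.3, 16.4, 34.8 and 44.6 CPM against 8.45, 0.220, 0, 0.753 and 0.200 CPM. These groups did not overlap either, with AMCA-negative replicate 1 the highest of its group (5.14 ± 1.44 SE in log2 units; adjusted p = 0.0252 by edgeR).

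The gene hspb7, known from heart and muscle, held a single AMCA-negative count, so its ratio of 102-fold was loosely bounded (95% counting interval 18.1 to 4072; edgeR adjusted p = 0.0184). It had no count in AMCA-positive replicate 3, so the groups overlapped. The better known stress gene hspb1 was uneven: 30.6, 21.7, 113, 65.5 and 52.2 CPM in AMCA-positive and 0, 0, 0.490, 82.0 and 1.597 CPM in AMCA-negative replicates. It did not pass (3.29 ± 1.81 SE in log2 units; adjusted p = 0.244 by edgeR), and without AMCA-negative replicate 4 its log2 fold change was 6.91 (edgeR adjusted p = 0.00259). Without that library hspb6 also passed (log2 fold change 7.52, edgeR adjusted p = 0.0122). It held all AMCA-negative counts of hspb6, so this fit was made against a group with no count. The gene hspb11 had no AMCA-negative count and was not tested. Set against 3 counts, the floor used for all AMCA-negative libraries together, it was at least 30.0-fold higher, but 16.5 of its CPM came from AMCA-positive replicate 1 and the next library held 1.77. Counting intervals and floors cover counting error only.

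Markers of several cell types differed between the groups in the direction of this family. Astroglial and infundibular markers took 0.715% to 1.92% of AMCA-positive and 0.0274% to 0.0714% of AMCA-negative counts. Epithelial markers took 0.490% to 0.751% and 0.0123% to 0.0681%, and leukocyte markers 1.56% to 4.17% and 0.119% to 0.432%. Shares of endocrine and of neuron and oligodendrocyte markers overlapped between the groups. Of endocrine markers edgeR still called 4 of 17 higher and 0 lower (background 16.2% and 6.56%). Among these 4 was pomca, at 9901 ± 8311 against 15.8 ± 18.8 CPM (SD, n = 5). Red cell markers went the other way, with 14 of 15 called lower and 1, urod, higher. Mural and fibroblast markers took 0.141% to 0.222% of AMCA-positive and 0.00386% to 0.0485% of AMCA-negative counts, with pdgfrb and fbln1 at 0 in every library. The Hsp70 relative hspa12b, known from mammalian endothelium, was at 5.00, 0.165, 29.1, 4.12 and 6.62 CPM in AMCA-positive replicates and at 3 counts in all in AMCA-negative ones, a ratio of 69.7-fold (95% counting interval 23.6 to 340; edgeR adjusted p = 0.0322). AMCA-positive replicate 3 stood out, and replicate 2 lay within the AMCA-negative range. Endothelial markers took 0.0105% to 0.0179% of AMCA-positive and 6.59e-05% to 0.0199% of AMCA-negative counts, with sox17 at 0 in every library. The part of these cells in the differences was not tested.

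**Figure D4:**
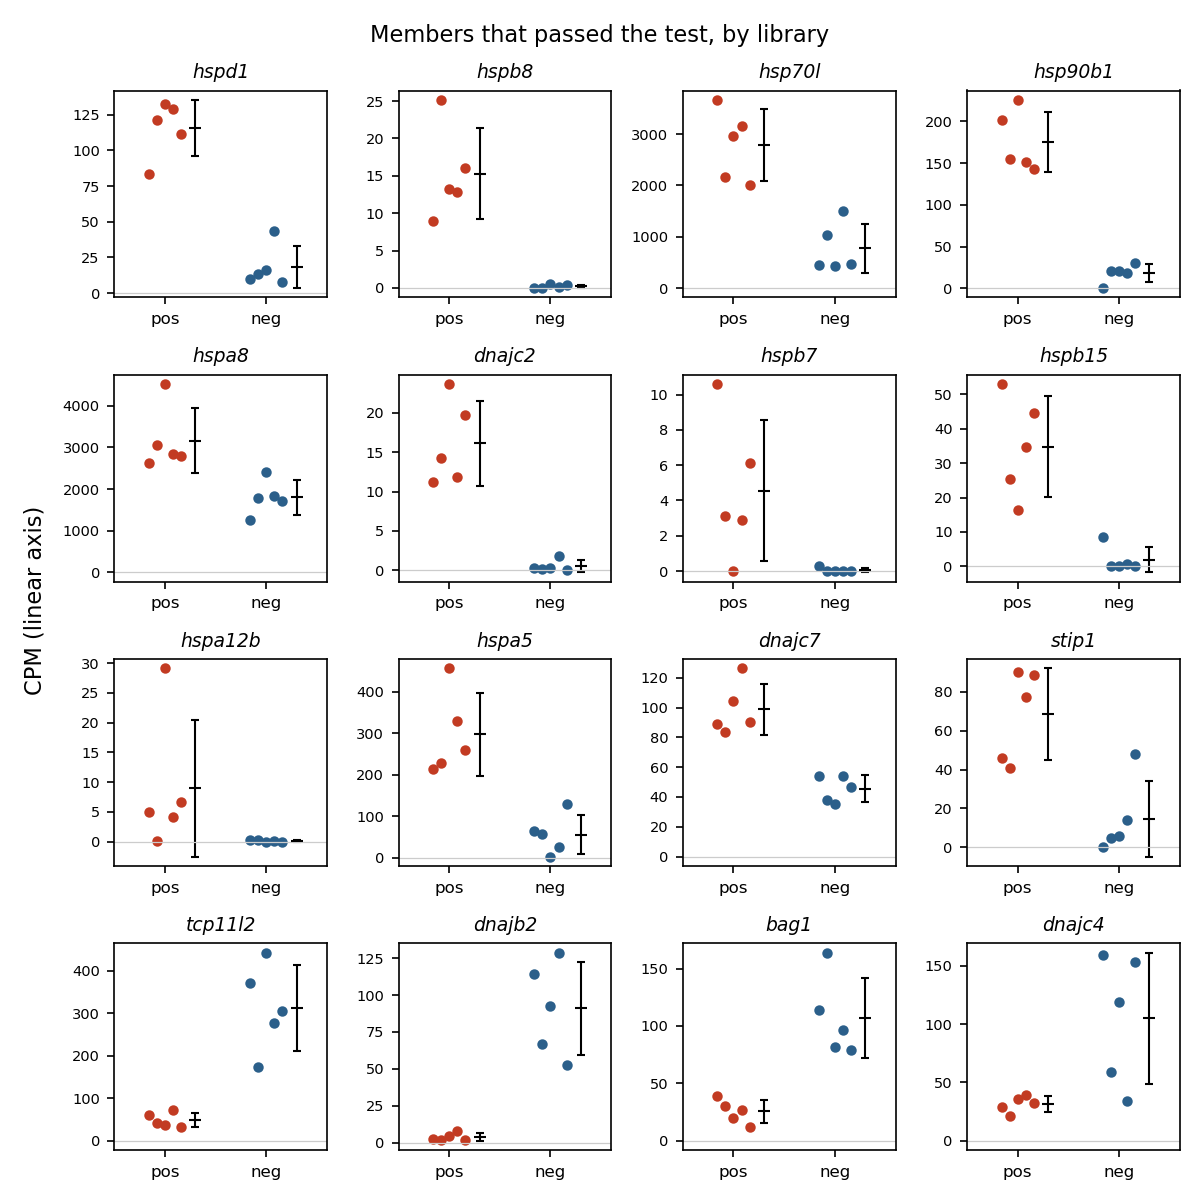
Level in CPM (linear axes, each with its own scale) of the 16 members that passed the test, 12 higher and then 4 lower, in 5 AMCA-positive (pos, red) and 5 AMCA-negative (neg, blue) libraries, with mean ± SD in black. The groups overlap for hspb7, hspa12b, stip1 and dnajc4 and are apart for the others.

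J proteins, the partners of Hsp70, were the most numerous and the most mixed family. Of 37 tested, edgeR called 2 higher and 2 lower (background 16.2% and 6.56%), with a median log2 fold change of 0.21, below that of all genes tested. The ribosome-associated J protein gene dnajc2 was at 11.2, 14.2, 23.6, 11.9 and 19.7 CPM in AMCA-positive and 0.282, 0.220, 0.245, 1.88 and 0 CPM in AMCA-negative replicates. Every AMCA-positive library was well above (4.97 ± 1.26 SE in log2 units; adjusted p = 0.0151 by edgeR). The gene dnajc7, whose product binds both Hsp70 and Hsp90, was at 89.2, 83.6, 104, 126 and 90.2 CPM against 54.3, 38.2, 35.3, 53.8 and 46.7 CPM. That is a small difference with no overlap (1.104 ± 0.36 SE in log2 units; adjusted p = 0.0478 by edgeR).

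In the other direction, dnajb2 was the member with the largest decrease. Its levels were 2.57, 1.82, 4.73, 7.78 and 1.89 CPM in AMCA-positive and 114, 66.8, 92.9, 129 and 52.7 CPM in AMCA-negative replicates, widely apart. The product of dnajb2 is known in mammals as a neuronal J protein that binds ubiquitin chains. The log2 fold change was -4.68 ± 0.66 (SE; adjusted p = 6.54e-04 by edgeR). The gene dnajc4 was at 28.9, 21.2, 35.6, 39.1 and 32.3 CPM against 159.6, 58.9, 119, 33.7 and 153 CPM. Here AMCA-negative replicate 4 lay inside the AMCA-positive range (-1.76 ± 0.51 SE in log2 units; adjusted p = 0.0300 by edgeR).

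The most counted J protein gene, dnajb1b, encodes an Hsp40 that serves the inducible Hsp70. It was at 1421, 799, 2077, 1151 and 953 CPM in AMCA-positive and 245, 476, 436, 1262 and 736 CPM in AMCA-negative replicates. As for hsp70.1, AMCA-negative replicate 4 overlapped the AMCA-positive range, and the gene did not pass (1.12 ± 0.37 SE in log2 units; adjusted p = 0.0522 by edgeR). It passed without AMCA-negative replicate 4 (edgeR adjusted p = 0.0191) or AMCA-positive replicate 5 (0.0415). Its paralog dnajb1a had a fitted change of the other sign, at 19.1 ± 3.56 against 53.9 ± 29.2 CPM (SD, n = 5; log2 fold change -1.44 ± 0.62 SE; edgeR adjusted p = 0.126). Of the class A genes, dnaja1, dnaja2, dnaja2l and dnaja3a, edgeR called 0 of 4, with 0 at an unadjusted p under 0.05 and 0 by DESeq2 or limma-voom, and their fitted log2 fold changes ran from -0.58 to 0.29.

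Of 7 nucleotide exchange factor genes tested, edgeR called 0 higher and 1 lower (background 16.2% and 6.56%). DESeq2 called 3 higher and 3 lower (background 25.9% and 9.19%), and limma-voom 2 higher and 1 lower (background 24.1% and 7.31%). Both called bag4 higher (adjusted p = 0.00949 by DESeq2 and 0.0328 by limma-voom), while edgeR did not (adjusted p = 0.161). The gene called lower by edgeR was bag1, at 38.6, 30.3, 20.1, 27.0 and 12.1 CPM in AMCA-positive and 114, 164, 81.4, 96.3 and 79.4 CPM in AMCA-negative replicates, with no overlap. The product of bag1 releases ADP from Hsp70 and binds the proteasome, and its log2 fold change was -2.07 ± 0.41 (SE; adjusted p = 0.00470 by edgeR). The stress-inducible gene bag3 was even in AMCA-positive libraries, from 30.9 to 47.4 CPM, and ran from 0.282 to 59.1 CPM in AMCA-negative ones (1.17 ± 1.33 SE in log2 units; adjusted p = 0.610 by edgeR). Without AMCA-negative replicate 2, bag5 and bag6 passed as lower (edgeR adjusted p = 0.0437 and 0.0328). The fourth lower gene, tcp11l2, matches the pattern by name only and is not known as a chaperone. It was at 60.5, 42.7, 38.0, 72.2 and 33.3 CPM against 370.2, 173, 443, 277 and 304 CPM, with no overlap (-2.66 ± 0.36 SE in log2 units; adjusted p = 5.76e-04 by edgeR).

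Subunits of the cytosolic chaperonin CCT, a double ring that folds actin and tubulin, all had positive fitted changes, against 63.3% of all genes. The 7 tested ran from 0.08 (tcp1) to 2.04 (cct5) on the log2 scale with a median of 1.11, against 0.69 for all genes. The change of tcp1 was 0.08 ± 0.60 (SE), and its mean was lower in AMCA-positive libraries (118 against 126 CPM). On plate 1 alone tcp1 (-1.38) and cct7 (-0.41) had negative fitted changes. By edgeR 0 of 7 passed (background 16.2% higher), with 2 higher at an unadjusted p under 0.05. DESeq2 called 1 higher (background 25.9%) and limma-voom 2 (background 24.1%). The gene with the smallest p, cct8, was at 107, 89.4, 164, 139 and 92.6 CPM in AMCA-positive and 16.6, 102, 64.9, 32.4 and 15.0 CPM in AMCA-negative replicates. Only AMCA-negative replicate 2 reached the AMCA-positive range (edgeR adjusted p = 0.122), and without it cct8 passed (edgeR adjusted p = 0.0207). The CCT subunit gene cct5 had no count in AMCA-negative replicate 3 and from 52.1 to 263 CPM in the others. Prefoldin genes, whose products pass clients to CCT, had fitted log2 fold changes from -0.35 to 1.85, and edgeR called 0 of 4, with 0 at an unadjusted p under 0.05 and 0 by DESeq2 or limma-voom.

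Of partners of CCT and of small heat shock proteins outside the rule, edgeR called 1 of 15 tested higher and 3 lower (background 16.2% and 6.56%). The thioredoxin-like gene txndc9, a regulator of CCT, was at 72.4 ± 13.5 against 276 ± 122 CPM, the prefoldin-like gene uxt at 19.3 ± 2.14 against 158 ± 144 CPM and the tubulin cofactor gene tbca at 137 ± 31.2 against 302 ± 75.3 CPM (SD, n = 5). In each of these 3 genes every AMCA-positive library was lower. Their log2 fold changes were -1.91 ± 0.33, -2.95 ± 0.58 and -1.16 ± 0.28 (SE; edgeR adjusted p = 0.00267, 0.00499 and 0.0113). The chaperonin-like gene mkks was higher, at 1.61 ± 1.34 CPM (SD) with no AMCA-negative count (edgeR adjusted p = 0.0262). It reached the test through its AMCA-positive counts, and its change, fitted against an empty group, has no measured size.

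In mitochondria, Hsp60 and Hsp10 form the chaperonin that folds imported proteins. The Hsp60 gene hspd1 was higher, at 83.6, 121, 133, 129 and 111 CPM in AMCA-positive and 10.1, 13.6, 16.2, 43.8 and 7.58 CPM in AMCA-negative replicates. All AMCA-positive libraries were above, and AMCA-negative replicate 4 was the highest of its group. The log2 fold change of hspd1 was 2.72 ± 0.53 (SE; adjusted p = 0.00486 by edgeR). Its partner hspe1 did not pass (0.89 ± 0.39 SE in log2 units; adjusted p = 0.140 by edgeR), but did without AMCA-negative replicate 1 (edgeR adjusted p = 0.0303), which held 394 CPM. The mitochondrial Hsp70 gene hspa9 did not overlap between groups and did not pass (1.28 ± 0.56 SE in log2 units; adjusted p = 0.135 by edgeR). Of mitochondrial folding and protease genes outside the rule, 1 of 11 tested was lower (background 6.56%). This was the exchange factor gene grpel2, at 249 ± 46.0 against 533 ± 127 CPM (SD, n = 5; edgeR adjusted p = 0.00829). None of the other 10 passed by edgeR, while DESeq2 called 2 of the list higher (background 25.9%) and limma-voom 2 (background 24.1%).

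The heat shock factor genes hsf1 and hsf2 both had negative fitted changes. The master regulator hsf1 was at 9.54, 3.14, 11.4, 5.80 and 7.89 CPM in AMCA-positive and 26.5, 12.5, 0.735, 11.9 and 11.2 CPM in AMCA-negative replicates. These overlapped (-0.59 ± 1.02 SE in log2 units; adjusted p = 0.754 by edgeR). By edgeR 0 of 2 passed, with 1 lower at an unadjusted p under 0.05 and 0 by DESeq2 or limma-voom. The gene hsf2 was at 78.1, 41.7, 55.6, 71.1 and 62.9 CPM against 232, 36.5, 51.7, 388 and 171 CPM. The AMCA-negative libraries fell above, within and below the AMCA-positive range (edgeR adjusted p = 0.105), and leaving out AMCA-negative replicate 2 or 3 gave an edgeR adjusted p of 0.0371 or 0.0360. No count was found for hsf4 or hsf5.

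Immediate early genes, which respond within minutes to stimuli that include tissue dissociation, took 3.35% to 4.78% of AMCA-positive and 0.418% to 1.36% of AMCA-negative counts, and 14 of 25 tested were higher and 1 lower by edgeR (background 16.2% and 6.56%). The gene junba was at 5468 ± 813 against 309 ± 162 CPM, jun at 2575 ± 283 against 521 ± 247 CPM and gadd45ba at 2100.3 ± 359 against 367 ± 162 CPM (SD, n = 5). Of 14 heat-inducible members tested edgeR called 3 higher, hsp70l, stip1 and hspd1 (background 16.2%), DESeq2 10 higher and 1 lower (25.9% and 9.19%) and limma-voom 5 higher (24.1%). In the same libraries leukocyte markers took 1.56% to 4.17% of AMCA-positive and 0.119% to 0.432% of AMCA-negative counts, with none of the 20 at 0 in either group. The part of these genes and cells in the chaperone levels was not tested.

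The 5 AMCA-negative libraries differed among themselves far more than the 5 AMCA-positive ones. Over the 83 members the median SD of log2 CPM was 0.46 in AMCA-positive libraries and 1.75 in AMCA-negative ones, and 77 members (92.8%) were wider in AMCA-negative ones, against 81.7% of all genes tested. Spearman correlation of the members' counts had a median of 0.94 over 10 pairs of AMCA-positive and 0.71 over 10 pairs of AMCA-negative libraries. Between groups it was 0.63 over 25 pairs, and these values describe genes within libraries. Tested members without a count made up 0% to 1.205% in AMCA-positive libraries and 7.23% to 25.3% in AMCA-negative ones. For all genes tested the ranges were 1.63% to 3.76% and 22.6% to 35.9%. AMCA-negative replicate 3 had the most empty members, 21, and replicate 4 the fewest, 6.

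**Figure D5:**
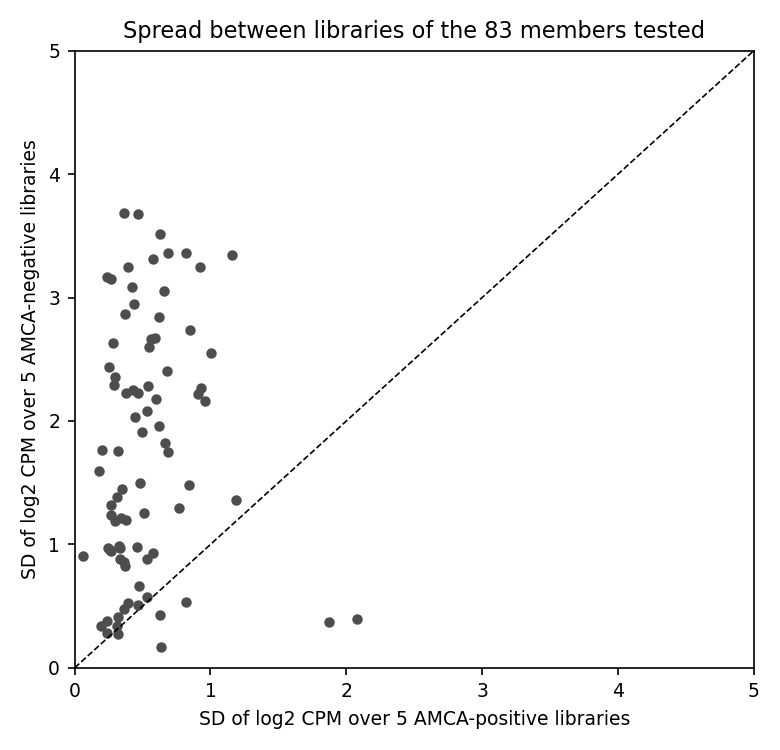
SD of log2 CPM over 5 AMCA-negative libraries (vertical) against the SD over 5 AMCA-positive libraries (horizontal) for each of the 83 members tested; the dashed line marks equal spread. Of the 83 points 77 lie above the line, with medians of 0.46 and 1.75.

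Both plates gave the same direction for the called members that could be fitted on each. For hsp70l the log2 fold change was 1.80 on plate 1 and 1.77 on plate 2, for hspa8 it was 0.73 and 0.77, for bag1 -2.20 and -2.11 and for tcp11l2 -2.63 and -2.83. It ranged more widely for hspb8 (9.42 and 5.22), hspb15 (2.88 and 6.53), stip1 (4.00 and 1.91) and dnajc2 (5.36 and 4.65). On plate 1 hspb8 had no AMCA-negative count, so its 9.42 is a fit against an empty group and has no measured size. The other values were 1.67 and 2.72 for hspa5, 4.00 and 2.93 for hsp90b1, 2.93 and 2.47 for hspd1, 0.69 and 1.25 for dnajc7, -5.57 and -4.24 for dnajb2 and -2.37 and -1.51 for dnajc4. On plate 2 hspa12b had 7.23 and on plate 1 hspb7 had 5.26, and each was under the filter on the other plate. The interaction of plate and group was called by edgeR for 0 of 87 members tested, with 6 at an unadjusted p under 0.05 (6.90%, against 9.65% of all genes), and for 0% of all genes. Without AMCA-negative replicate 2, the only AMCA-negative library on plate 1 was replicate 1, with 1 count of hsp90b1 and 4 of pfdn2. The fitted interactions (plate 2 minus plate 1) of hsp90b1 and pfdn2 were then -6.27 and -6.05 in log2 units, and they rest on that library.

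Several calls rested on having all 10 libraries. The call of dnajc7 was lost without any 1 of the 5 AMCA-positive or AMCA-negative replicates 2 to 5 (edgeR adjusted p from 0.0625 to 0.158). That of stip1 was lost without any AMCA-positive replicate or AMCA-negative replicates 2, 3 or 4 (0.0805 to 0.0951), and that of hspa5 without any AMCA-positive replicate or AMCA-negative replicates 1, 2 or 4 (0.0574 to 0.0973). The call of dnajc4 was lost without any AMCA-positive replicate or AMCA-negative replicates 1 or 5 (0.0588 to 0.0763). For hspa12b it was lost without AMCA-positive replicates 1, 4 or 5 or AMCA-negative replicates 3, 4 or 5 (0.0522 to 0.112), for hspb15 without AMCA-positive replicates 1, 4 or 5 or AMCA-negative replicates 4 or 5 (0.0522 to 0.0600), and for hspb7 without AMCA-negative replicate 1 (0.0592). The calls of hsp70l, hspa8, hsp90b1, hspb8, dnajc2, hspd1, bag1, dnajb2 and tcp11l2 were kept without each library in turn.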

How the data were processed

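RNA was counted in 10 libraries. The authors deposited raw counts per gene, a normalized signal (counts divided by a size factor per library), and their comparison of the groups as log2 fold changes, a score and p-value columns, per the file headers. Tools named in the submitters' processing notes are TopHat2 2.0.13, cutadapt, HTSeq and DESeq2, with the build danRer10. How reads were counted is not stated there. Groups came from the dye label, plates from the titles. Replicate numbers follow sample order and pair nothing, and nothing says that libraries came from separate pools, so p-values measure the spread between these libraries.

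All 10468 genes that passed filterByExpr were tested on their counts by the two-sided edgeR 4.0.16 quasi-likelihood F test (R 4.3.3, robust fit, TMM) with terms for plate and group. SE is the error implied by the F test. CPM divides a count by the library size after TMM scaling. Where a ratio is given, a group with no count was set against a floor of 3 counts. Reads were amplified with no molecular identifiers, so they do not count independent molecules. DESeq2 1.42.0 and limma 3.58.1 were alternatives. The tests were checked on simulated data. Of the authors' p-value columns, only calls at the adjusted p were used.

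The members and lists were chosen with earlier results of these data known. Genes named are the 4 members of each family with the smallest adjusted p, its most counted member, all members of families with 6 or fewer tested, well-known members, and up to 4 genes of other lists. Sequences of the members were not used here.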

Additional observations from a re-analysis of the deposited data

Results flagged for a closer look

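In 13 of the 102 gene and group pairs looked at (51 named members tested, 2 groups), 1 library stood far from the other 4 on the log2 CPM scale, by a gap divided by the group's range above 0.710. Chance flags about 1 in 20 such groups.

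In AMCA-positive libraries, replicate 3 stood high for hspa8 (4522 CPM, next 3054, gap 0.720 of the range) and hsp90ab1 (3990.2 CPM, next 2539, gap 0.728). Replicate 2 stood high for the prefoldin genes pfdn1 (198 CPM, next 88.4, gap 0.764) and pfdn5 (118 CPM, next 59.1, gap 0.900). Replicate 1 stood low for bag4 (5.45 CPM, next 17.9, gap 0.719).

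In AMCA-negative libraries, replicate 3 stood low for cct5 (0 CPM, next 52.1, gap 0.755), hsf1 (0.735 CPM, next 11.2, gap 0.736) and dnajc1 (0 CPM, next 31.4, gap 0.816), and replicate 1 for hsp90b1 (0.282 CPM, next 17.9, gap 0.867). A single library held the AMCA-negative counts of ahsa1a (replicate 1, 64.5 CPM), dnajb9b (replicate 5, 9.98 CPM), hspb6 (replicate 4, 14.9 CPM) and hspb7 (replicate 1, 0.282 CPM), a gap of 1 in each. Any group with counts in a single library has this gap, whatever the level.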

How the results depend on the processing

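All 16 called members kept their direction in the alternatives they could be fitted in, and no one of them kept its call in all. Plate 1 alone gave 0 calls higher and 0 lower. On plate 2 alone hsp70l, hspa8, dnajc2, dnajc4, dnajc7, hspa5 and stip1 did not pass either (edgeR adjusted p from 0.0681 to 0.173). The call of hspa12b, which was not fitted on plate 1, was lost in 8 of 17 alternatives. Members called higher (12) numbered 27 by DESeq2, 23 by limma-voom, 7 with a filter of 10 CPM in 5 libraries, 7 on plate 2 and 7 to 13 without 1 library. Members called lower (4) numbered 9 by DESeq2 and 3 to 8 without 1 library. Of all genes, 2711 were higher by DESeq2, 676 with the 10 CPM filter and 29 on plate 1, where 34 were lower. The AMCA-negative share of counts was 1.27% without the 10 most counted genes. Interaction calls numbered 0 with all libraries. Leaving out a plate 1 library leaves 1 library of its group there, so calls of those fits are not given.

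DESeq2 scaling in edgeR moved the median log2 fold change of all genes from 0.69 to 0.85 and called 16 members higher, 12 of them shared, and 4 lower. With neighbouring wells as a replicate block 11 members were higher and 3 lower, and 438 of all genes were lower. Deviations of neighbouring wells from their group means correlated at 0.00538 to 0.0353. This cannot decide whether they share a pool, as AMCA-negative libraries varied widely (median SD of log2 CPM 1.80 over all genes tested). The wells were not taken as pairs in the main fit, as the labels give no pairing.

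Uncalled members among the 51 named ones tested changed sign in log2 fold change. On plate 1 these were cct7 (-0.41), ahsa1a (-3.61), dnaja3a (-0.51), hspe1 (-0.19) and pfdn1 (0.26), and on plate 2 bag3 (-0.0725), hsf1 (0.0780) and hspb6 (-0.20). The sign of dnaja1 turned by limma-voom (0.15), the block (0.15) and without AMCA-negative replicate 2 (-0.96 to 0.68 over libraries left out), of pfdn6 likewise (0.71, 0.27 and -0.69 to 0.51), of dnaja2l by DESeq2 and its scaling (0.0222 in both) and of dnaja3a without AMCA-negative replicate 3 (-0.26 to 1.19 over libraries left out). The causes were not tested. Low counts in AMCA-negative libraries limit what can be called there. Genes near 0 in those libraries could be tested only where their AMCA-positive counts were high enough.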

Other observations

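The ratio of hsp70l to hsp70.1 counts within a library needs no scaling between libraries, and was looked at after the values were seen, with no test. It was 1.15, 0.931, 0.965, 0.985 and 0.859 in AMCA-positive and 0.774, 0.591, 0.702, 0.550 and 0.523 in AMCA-negative replicates 1 to 5, without overlap. Reads may have been split between these similar copies, so the ratio itself is uncertain. The 2 other ratios looked at overlapped between the groups. Counts of hsp70l and hsp70.1 together per count of hspa8 ran from 1.34 to 2.62 in AMCA-positive and from 0.424 to 2.29 in AMCA-negative libraries, where replicates 4 and 2 had the highest values. The ratio of hsp90aa1.2 to hsp90ab1 ran from 0.148 to 0.450 and from 0.223 to 0.468.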
